A study of Canis lupus familiaris with 10 samples.

Results

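The microRNAs of the imprinted DLK1-DIO3 locus were examined in small RNA libraries of lymph nodes from dogs with diffuse large B-cell lymphoma (DLBCL) and from healthy dogs. They were picked by name: a row was a member when its number was that of a miRNA known from this locus, and 32 of the 320 miRNAs in the table met that rule. The rule uses names alone and no expression value. The 6 DLBCL nodes (DLBCL1 to DLBCL6) were biopsies of affected peripheral nodes taken under anesthesia from client-owned dogs of both sexes and several breeds, whose ages the sources used here do not give. The 4 healthy nodes (Healthy2 to Healthy5) came after euthanasia from purpose-bred female hound crosses under a year old. Each library was made from the fresh-frozen node of 1 dog. No treatment is part of the design, and the clinical notes name earlier antibiotics for 1 dog with DLBCL. Origin, breed and the way of sampling differ along with the diagnosis and cannot be told apart from it, and the healthy group holds females only. The nodes were bulk tissue, in which fewer cells of a type and less RNA per cell cannot be told apart.

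At an imprinted locus, transcription depends on the parent from which the chromosome came. In mammals the DLK1-DIO3 locus expresses the protein genes DLK1, RTL1 and DIO3 from the paternal chromosome, and the noncoding MEG3 transcripts, C/D box snoRNAs and a very large group of miRNAs from the maternal chromosome. The miRNAs are cut from long polycistronic transcripts, and they are best known from placenta, embryo, brain and mesenchymal cells. A miRNA loaded into Argonaute pairs through its seed with target mRNAs and lowers their output.

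In the annotation of UU_Cfam_GSD_1.0, 39 miRNA genes lie between MIR493 and MIR410, and 31 of the 32 members matched by name, 30 of them to 1 gene and miR-376a to 3. The member miR-369 matched no gene there. The block falls into an upstream part, with miR-493, miR-433, miR-127, miR-432, miR-136 and miR-370, and a part that begins at miR-379, with the other 26 members. Between MIR370 and MIR379 the annotation places 52 snoRNA genes. From MIR379 to MIR410 it lists 32 miRNA genes with 0 genes of other kinds among them. The miRNA genes MIR665, MIR329A, MIR544, MIR496 and MIR409 had no row in the table, and miR-3958, which lies inside the block, had a row but is not a member.

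The libraries held 10686441 to 25784861 miRNA reads in DLBCL and 30432969 to 34709421 in healthy nodes. Values are CPM (miRNA reads scaled to a common library size) after TMM scaling, a method that sets library sizes so that most miRNAs keep a like level. A count of 3 reads, the limit that a count of 0 allows, equals 0.0743 to 0.251 CPM depending on the library, which covers counting error only. Markers of the labelled tissue were present in every library: miR-142, miR-150, miR-155, miR-181a, miR-342 and miR-146a summed to 13179 to 28433 CPM in DLBCL and 22929 to 41179 CPM in healthy nodes. Of these 6 lymphocyte miRNAs, miR-150 and miR-146a were lower in DLBCL at the study's thresholds.

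The members together were a small part of each node's miRNAs and, with TMM scaling, were lower in most DLBCL nodes. Their summed level was 192 CPM in DLBCL1, 915 in DLBCL2, 54.0 in DLBCL3, 298 in DLBCL4, 79.2 in DLBCL5 and 536 in DLBCL6. In the healthy nodes it was 1587 CPM in Healthy2, 658 in Healthy3, 721 in Healthy4 and 997 in Healthy5. DLBCL2 lay inside the healthy range, DLBCL6 lay 1.23-fold under the lowest healthy node, and DLBCL3 lay 12.2-fold under it. The group means were 346 ± 329.4 CPM (SD, n = 6) and 991 ± 424 CPM (SD, n = 4), so that the SD of the DLBCL nodes was nearly as large as their mean. As a share of all miRNA reads, the members took 0.00445% in DLBCL3 (95% Wilson interval 0.0042 to 0.00471%) and 0.129% in DLBCL2 (0.127 to 0.13%). On that scale, which takes no account of other abundant miRNAs, the healthy nodes ran from 0.0451% (Healthy4) to 0.111% (Healthy5). DLBCL2 lay above all of them, DLBCL4 (0.052%) and DLBCL6 (0.109%) lay among them, and only DLBCL1 (0.0214%), DLBCL3 and DLBCL5 (0.00553%) lay below them. At least 1 read was counted for 27 to 31 members in the healthy nodes, for 29 or 30 in DLBCL2, DLBCL4 and DLBCL6, and for 22, 14 and 18 in DLBCL1, DLBCL3 and DLBCL5.

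**Figure D1:**
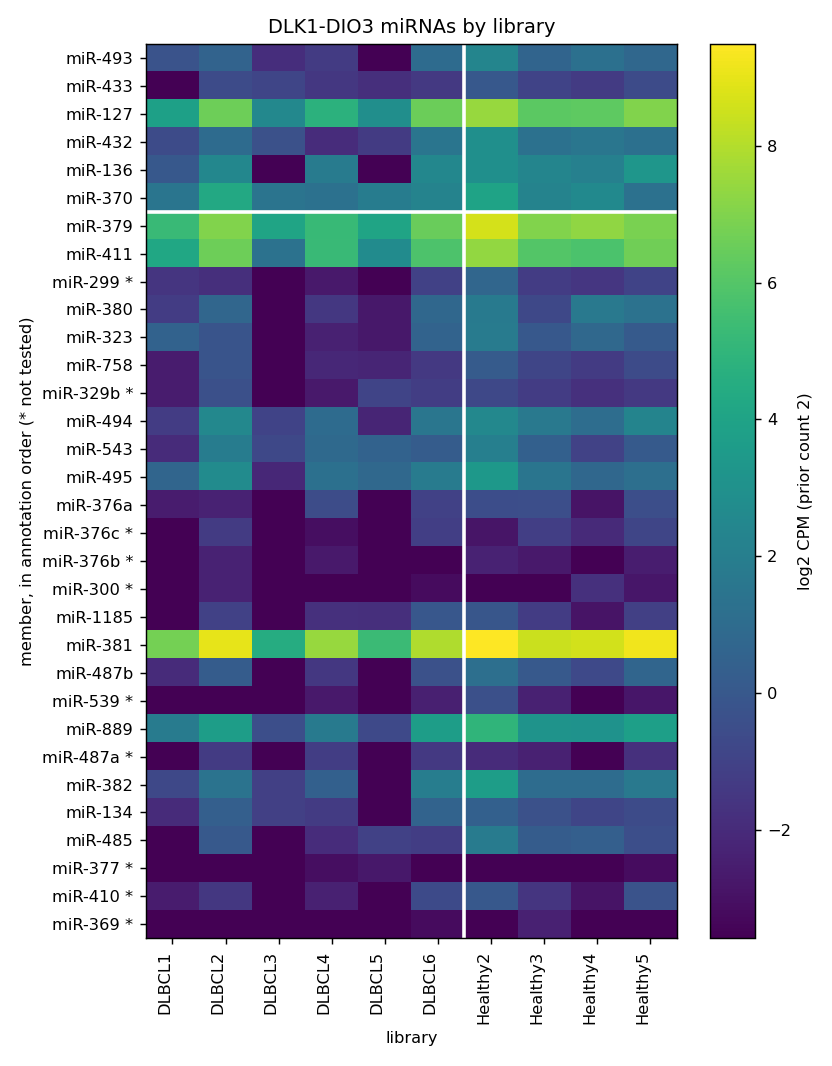
Log2 CPM (prior count 2) of the 32 members by library, with the members in annotation order (miR-369, which matched no gene, is last). White lines separate DLBCL from healthy nodes and the upstream part from the part beginning at miR-379, and * marks the 10 members that did not pass the filter on low counts. The bright rows are miR-381, miR-379, miR-127 and miR-411, and the columns of DLBCL3 and DLBCL5 are the darkest.

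The same 4 miRNAs made up nearly all of the members' reads in both groups. miR-381 took 51.7 ± 6.5% of them in DLBCL (SD, n = 6) and 53.4 ± 6.03% in healthy nodes (SD, n = 4). miR-379 took 19.1 ± 6.31% and 19.5 ± 5.72%. For miR-127 the shares were 10.8 ± 3.44% and 11.5 ± 1.1%. For miR-411, whose gene follows that of miR-379, they were 9.4 ± 2.76% and 9.52 ± 1.35%. For each of the 4 the group means differed by less than the SD of either group. Together the 4 miRNAs took 91.0 ± 2.36% in DLBCL and 94.0 ± 1.11% in healthy nodes. Single nodes did move from this pattern: in DLBCL3, the node with the lowest summed level, miR-379 took 30.1% of 1147 reads (95% Wilson interval 27.5 to 32.8%) and miR-411 took 4.62% (3.55 to 5.99%), and in DLBCL6 miR-127 took 17.4% of 21617 reads (16.9 to 17.9%). The upstream part held 14.7 ± 3.85% of the members' reads in DLBCL and 13.6 ± 0.866% in healthy nodes.

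**Figure D2:**
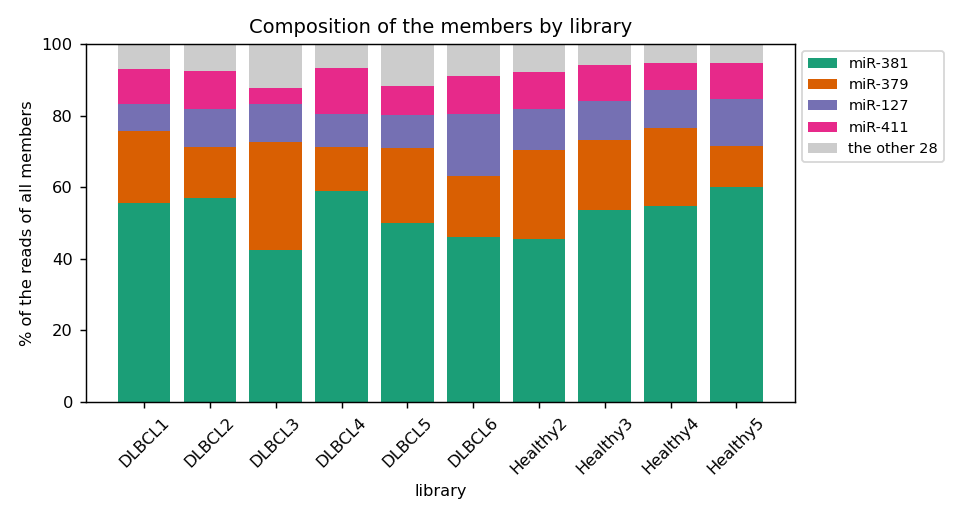
Share of the reads of all members (%, stacked to 100) taken by miR-381, miR-379, miR-127, miR-411 and the other members in each library. miR-381 takes between 42.5% and 60.0% of the reads in every library, in DLBCL and healthy nodes alike.

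A differentially expressed miRNA, or DEM, had to pass an adjusted p of 0.05 and to differ by more than 1 log2 unit in either direction. Of the 32 members, 22 passed the default filter on low counts, which asks for 0.419 CPM in 4 libraries, the size of the healthy group. Of the 22, 10 reached that level in fewer than 4 DLBCL nodes, so that their place among the tested miRNAs leaned on the healthy nodes. None of the 22 was a DEM by the quasi-likelihood test of edgeR, with p adjusted by Benjamini-Hochberg over all miRNAs tested, against a background of 14 of 247 miRNAs (5.67%). At an unadjusted p under 0.05, 3 members were lower and none was higher in DLBCL, where 9.31% of all miRNAs tested were lower at that threshold. By DESeq2 1 member, miR-379, was a DEM, where 14.7% of 306 miRNAs were, and 9 members were lower at an unadjusted p under 0.05, where 11.1% were. In limma-voom libraries were weighted by how closely they followed the fitted model, not by base quality. By this method the DEMs included miR-379 and miR-485, where 18.6% of 247 miRNAs were DEMs. At an unadjusted p under 0.05 by limma-voom, 6 members were lower, where 15.0% were. No member had every DLBCL node below every healthy node, which 6.07% of the miRNAs tested had, and none had every DLBCL node above, which 6.88% had.

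The direction was one-sided, but the members moved together across the libraries (median Pearson r 0.85, described below). They are therefore not 22 separate observations, and no test is attached to the counts that follow. All 22 tested members had a negative log2 fold change, from -2.30 to -0.24, where 44.5% of the miRNAs tested did. Their median was -1.44, against 0.13 for all miRNAs tested. A log2 fold change under -1 was found for 16 of the 22 members and for 18.2% of all. Without any filter, 30 of the 32 members were negative, where 45.3% of all 320 miRNAs were, and the other two were miR-377 and miR-487a. Their median was then -1.46, against 0.10 for all. Scaling each library to its total of miRNA reads, as the deposited TPM values do, raised the median of all miRNAs tested to 0.82 and that of the members to -0.33. On that scale 17 of the 22 members were negative, where 19.8% of all were, and miR-1185, miR-134, miR-370, miR-495 and miR-543 were positive. None was then lower at an unadjusted p under 0.05, where 1.62% of all were. With miR-148a left out of that total, all 22 members were negative with a median of -1.30, against 0.04 for all. miR-148a itself had 87821 to 556146 CPM in DLBCL and 464397 to 1452807 CPM in healthy nodes. The standard errors were also wide, with a median of 0.86 for the members and 0.59 for all miRNAs tested.

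**Figure D3:**
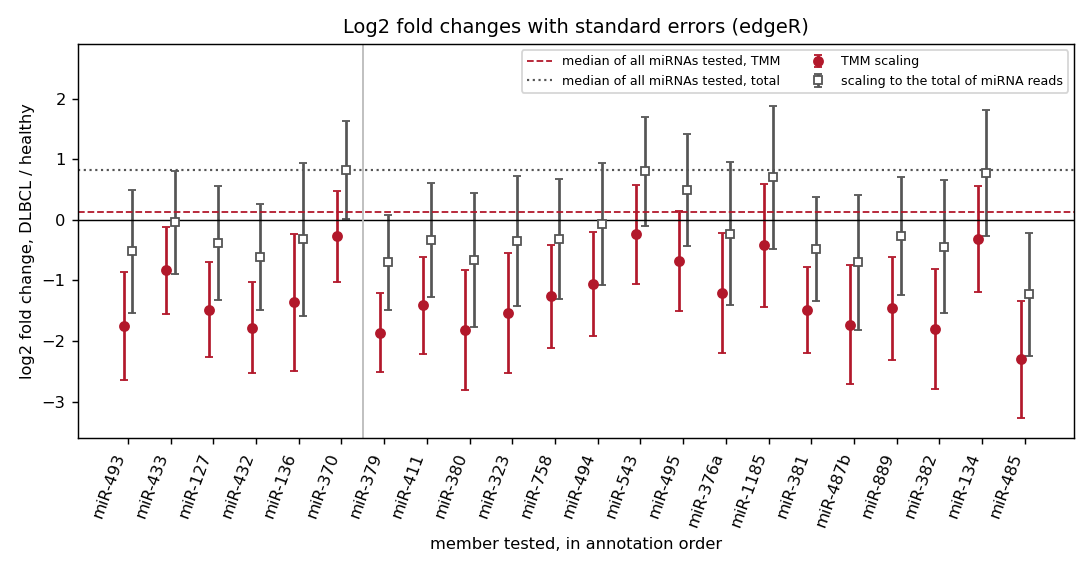
Log2 fold change (DLBCL over healthy) with its standard error for the 22 tested members in annotation order, with TMM scaling (filled circles) and with scaling to the total of miRNA reads (open squares). The horizontal lines give the medians of all 247 miRNAs tested, 0.13 and 0.82. With TMM scaling every member lies below both lines.

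miR-381 was the most abundant member. It had 107 CPM in DLBCL1, 521 in DLBCL2, 23.0 in DLBCL3, 175 in DLBCL4, 39.6 in DLBCL5 and 247 in DLBCL6, against 721, 352, 394 and 598 CPM in Healthy2 to Healthy5. Of the DLBCL nodes 5 lay below every healthy node, and DLBCL2 lay among them. The group means were 185 ± 185 CPM (SD, n = 6) and 516 ± 174 CPM (SD, n = 4), and the log2 fold change was -1.48 (SE 0.71) with an adjusted p of 0.191 by edgeR.

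miR-379, the first miRNA of the large cluster, came closest to the threshold. Its level was 38.6 CPM in DLBCL1, 131 in DLBCL2, 16.2 in DLBCL3, 36.7 in DLBCL4, 16.5 in DLBCL5 and 91.0 in DLBCL6. In Healthy2 to Healthy5 it was 397, 130, 157 and 116 CPM. Again DLBCL2 alone reached the healthy range. The healthy mean was 3.64-fold the DLBCL mean, 200 ± 133 CPM (SD, n = 4) against 55.0 ± 46.1 CPM (SD, n = 6). The log2 fold change was -1.86 (SE 0.65), with an unadjusted p of 0.0132 and an adjusted p of 0.109 by edgeR. DESeq2 gave -1.97 with an adjusted p of 0.0258, and edgeR without DLBCL2 gave -2.30 with an adjusted p of 0.0498. Over all alternatives the adjusted p of miR-379 ran from 0.0258 to 0.578.

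miR-411 lies next to miR-379 and had 18.5 CPM in DLBCL1, 95.8 in DLBCL2, 2.49 in DLBCL3, 38.2 in DLBCL4, 6.58 in DLBCL5 and 56.3 in DLBCL6. The healthy nodes had 168, 64.5, 54.5 and 101 CPM. DLBCL2 and DLBCL6 overlapped the healthy nodes and the other 4 nodes lay below them. The log2 fold change was -1.41 (SE 0.80) with an adjusted p of 0.254 by edgeR. miR-889 showed the same split, with 3.51 CPM in DLBCL1, 12.9 in DLBCL2, 0.659 in DLBCL3, 3.32 in DLBCL4, 0.521 in DLBCL5 and 12.7 in DLBCL6, and 31.1, 8.55, 8.24 and 13.9 CPM in Healthy2 to Healthy5. For miR-889 the log2 fold change was -1.46 (SE 0.85), with an adjusted p of 0.272.

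**Figure D4:**
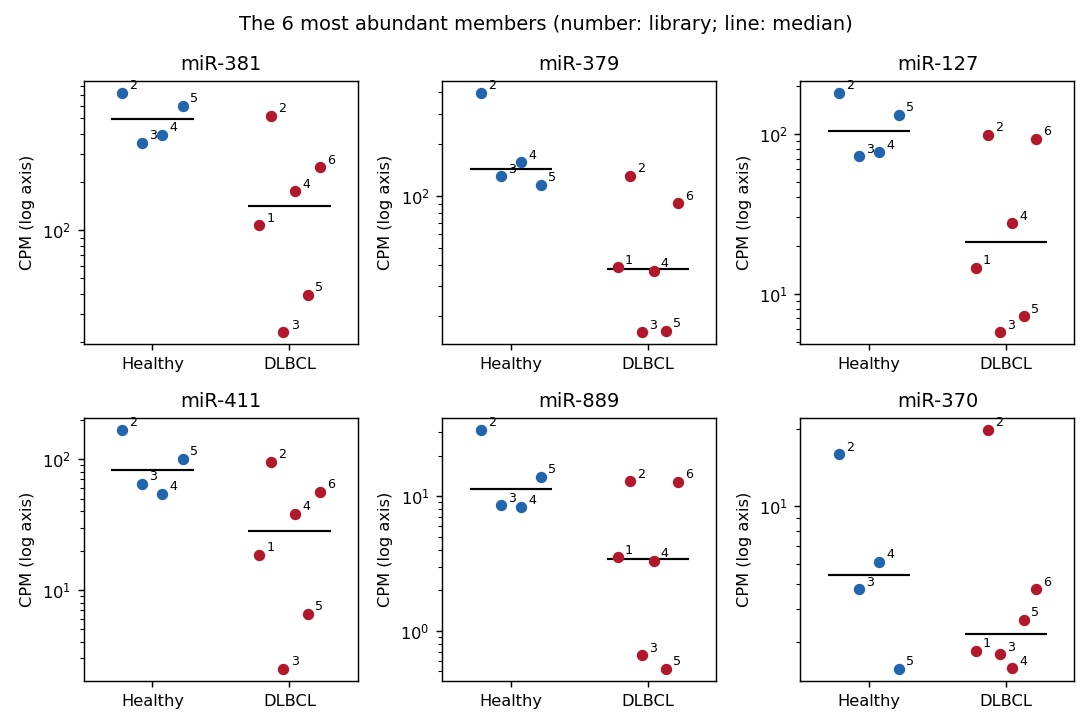
CPM on a log axis of the 6 members with the highest mean log2 CPM, with 1 point per library (the number is that of the library) and a line at the group's median. In miR-381, miR-379, miR-127, miR-411 and miR-889 the DLBCL3 and DLBCL5 points are the lowest and DLBCL2 is the highest DLBCL point. In miR-370 DLBCL2, at 19.8 CPM, is above every healthy node.

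Among the upstream members, miR-433, miR-127, miR-432 and miR-136 are encoded opposite RTL1, the paternally expressed retrotransposon-derived gene, and in mammals such miRNAs pair perfectly with its transcript. miR-127 is also known to repress BCL6, the transcription factor of germinal center B cells. miR-127 had 14.5 CPM in DLBCL1, 98.4 in DLBCL2, 5.74 in DLBCL3, 27.6 in DLBCL4, 7.23 in DLBCL5 and 93.3 in DLBCL6. The healthy nodes had 180, 72.5, 76.7 and 131 CPM. DLBCL2 and DLBCL6 lay within the healthy range and the other 4 DLBCL nodes lay below it. The log2 fold change was -1.48 (SE 0.78), with an adjusted p of 0.232 by edgeR.

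miR-432 was the upstream member with the lowest log2 fold change, -1.78 (SE 0.75), with an unadjusted p of 0.035 and an adjusted p of 0.142 by edgeR. Its level was 0.176 to 2.75 CPM in DLBCL and 2.26 to 7.51 CPM in healthy nodes. For miR-493 the log2 fold change was -1.75, for miR-136 it was -1.36 and for miR-433 it was -0.83. miR-136 had 0 reads in DLBCL3 and DLBCL5 and 4.25 to 9.67 CPM in the healthy nodes. Over the 6 upstream members the median log2 fold change was -1.42, and over the 16 tested members of the part beginning at miR-379 it was -1.44.

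miR-370, the upstream member nearest the snoRNA genes, stood apart from its neighbours. It had 2.76 CPM in DLBCL1, 19.8 in DLBCL2, 2.68 in DLBCL3, 2.36 in DLBCL4, 3.65 in DLBCL5 and 4.78 in DLBCL6, and 15.9, 4.77, 6.09 and 2.35 CPM in Healthy2 to Healthy5. No DLBCL node lay below every healthy node, since Healthy5 was as low as the lowest DLBCL nodes. The log2 fold change was -0.27 (SE 0.75) with an adjusted p of 0.841 by edgeR. It turned to 0.82 with scaling to total reads and to 0.53 without Healthy2.

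The lowest log2 fold change among the 22 tested members belonged to miR-485, whose targets in neurons include the synaptic vesicle protein gene SV2A. miR-485 was a rare miRNA here, with 0 reads in DLBCL1 and DLBCL3, 0.977 CPM in DLBCL2, 0.176 in DLBCL4, 0.391 in DLBCL5 and 0.347 in DLBCL6. The healthy nodes had 3.58, 1.06, 1.21 and 0.645 CPM. Only DLBCL2 reached the healthy range, and the counts behind these values were small, 50 reads over the DLBCL nodes and 137 over the healthy ones. miR-485 passed the filter with fewer than 4 DLBCL nodes at its limit, so that its low place in DLBCL partly follows from the filter. The log2 fold change was -2.30 (SE 0.96), with an unadjusted p of 0.0331 and an adjusted p of 0.141 by edgeR. With limma-voom and weighted libraries it was -2.65 with an adjusted p of 0.037.

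miR-380 had 0.335 CPM in DLBCL1, 1.60 in DLBCL2, 0 in DLBCL3, 0.282 in DLBCL4, 0.0651 in DLBCL5 and 1.61 in DLBCL6, and 3.36, 0.514, 3.15 and 2.43 CPM in Healthy2 to Healthy5. The log2 fold change of miR-380 was -1.82 (SE 0.99) with an adjusted p of 0.243 by edgeR. miR-382 had 0.502 CPM in DLBCL1, 2.50 in DLBCL2, 0.377 in DLBCL3, 1.23 in DLBCL4, 0 in DLBCL5 and 3.74 in DLBCL6, and 12.7, 1.94, 1.94 and 3.14 CPM in the same healthy nodes. This gave a log2 fold change of -1.80 (SE 0.99) with an adjusted p of 0.244. In both miRNAs 4 of the 6 DLBCL nodes lay below every healthy node. miR-380 also passed the filter with fewer than 4 DLBCL nodes at its limit, so that its low place partly follows from the filter.

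The other end of the tested members held miR-543, miR-370, miR-134 and miR-1185. miR-543 had 0.167 CPM in DLBCL1, 3.60 in DLBCL2, 0.518 in DLBCL3, 1.76 in DLBCL4, 1.37 in DLBCL5 and 1.07 in DLBCL6, and 4.10, 1.25, 0.42 and 0.997 CPM in healthy nodes. Its groups overlapped nearly in full, and its log2 fold change was -0.24 (SE 0.81). miR-134, which in neurons limits LIMK1 and the size of dendritic spines, had 0.167 CPM in DLBCL1, 1.21 in DLBCL2, 0.377 in DLBCL3, 0.318 in DLBCL4, 0 in DLBCL5 and 1.41 in DLBCL6. The healthy nodes had 1.25, 0.697, 0.473 and 0.586 CPM, and 4 DLBCL nodes lay below them all. Its log2 fold change was -0.32 (SE 0.87). miR-1185 had 0 CPM in DLBCL1 and DLBCL3, 0.391 in DLBCL2, 0.212 in DLBCL4, 0.195 in DLBCL5 and 0.892 in DLBCL6, and 0.853, 0.33, 0.0525 and 0.381 CPM in healthy nodes, and its log2 fold change was -0.42 (SE 1.01). The adjusted p of miR-543, miR-134 and miR-1185 was between 0.825 and 0.864 by edgeR, and each had the opposite sign with scaling to total reads.

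The remaining tested members of the large cluster were miR-487b (log2 fold change -1.73), miR-323 (-1.54), miR-758 (-1.26), miR-376a (-1.21), miR-494 (-1.06) and miR-495 (-0.68), and none had an unadjusted p under 0.05. The 10 members that did not pass the filter were miR-299, miR-300, miR-329b, miR-369, miR-376b, miR-376c, miR-377, miR-410, miR-487a and miR-539, with at most 28 reads in any library. Without a filter their log2 fold changes ran from -2.52 for miR-539 to 0.41 for miR-377, which had 3 reads in all. The miR-376 miRNAs, known for A-to-I editing of their precursors, and the 2 miR-487 miRNAs are families of similar sequences. Whether the counting split reads within them was not examined, so their separate values are uncertain.

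The DLBCL nodes differed from each other more than the healthy nodes did, and the members did so together. DLBCL2 and DLBCL6 were the 2 highest DLBCL nodes for 17 of the 22 tested members. miR-381, miR-127 and miR-411 shared exactly the same order of the 6 nodes, with DLBCL2 highest, then DLBCL6, DLBCL4, DLBCL1 and DLBCL5, and DLBCL3 lowest. Among the healthy nodes Healthy2 was the highest for 20 of the 22 with TMM scaling. As a share of all miRNA reads, the members took 0.0804% in Healthy2 and more, 0.111%, in Healthy5. Of the tested members 19 lay below every healthy node in DLBCL1, 19 in DLBCL3, 17 in DLBCL4 and 18 in DLBCL5, but only 3 in DLBCL2 and 5 in DLBCL6. Over all 247 miRNAs tested these shares were 34.4%, 44.1%, 36.0% and 32.0%, and 21.9% and 25.1%. Of the 22 members, 10 passed the filter with fewer than 4 DLBCL nodes at its limit. For those 10 a low place in DLBCL partly follows from the filter. The median member lay at -3.43 log2 units from its healthy mean in DLBCL5 and at -0.05 in DLBCL2.

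**Figure D5:**
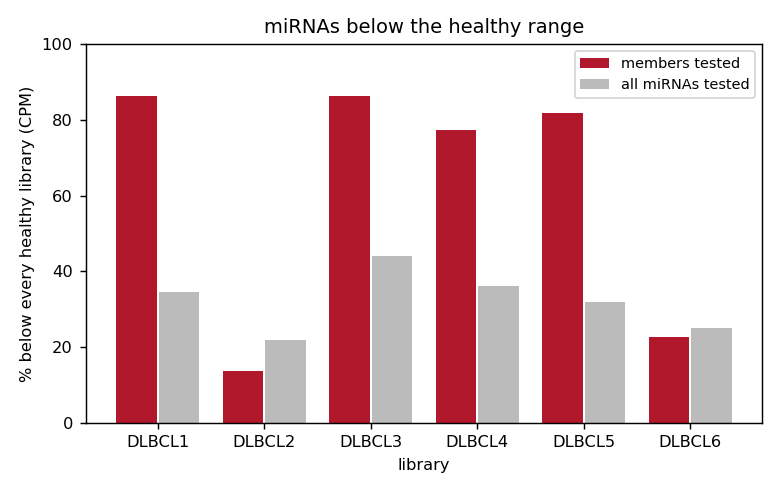
Percent of the tested members (red) and of all miRNAs tested (grey) whose CPM was below that of every healthy library, for each DLBCL library. The red bar is far above the grey one in DLBCL1, DLBCL3, DLBCL4 and DLBCL5 and below it in DLBCL2 and DLBCL6. The red bars include 10 members that passed the filter with fewer than 4 DLBCL nodes at its limit.

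The SD of log2 CPM over the 6 DLBCL nodes was 1.68 for miR-381, 1.77 for miR-127 and 1.97 for miR-411, where the median of 189 miRNAs with at least 10 reads in every library was 0.95. Over the 4 healthy nodes the SDs were 0.49, 0.63 and 0.73, where the median was 0.48. miR-379 had 1.23 and 0.81, and miR-370 had 1.13 in both groups. As deviations from the group's mean log2 CPM over the 10 libraries, 21 of the 22 tested members correlated above 0.5 with the mean of the others (median Pearson r 0.85). Of the 225 other miRNAs tested, 15.6% correlated above 0.5 with the mean of the members. These correlations describe 10 libraries that share depth and scaling for every miRNA, and no test is attached to them.

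The 5 non-members most like the mean of the members by this measure, over 10 libraries, were miR-3958 (Pearson r 0.88), miR-152 (0.88), miR-199 (0.85), miR-95 (0.81) and miR-214 (0.80). miR-3958 lies inside the block, between MIR495 and the miR-376 genes. It had 0.188 CPM in DLBCL3 and 4.38 CPM in DLBCL2, and 2.10 to 5.69 CPM among the healthy. Its log2 fold change was -1.11, with an adjusted p of 0.321 by edgeR. miR-199 and miR-214 are miRNAs of stromal cells, and had log2 fold changes of -0.90 and -0.74.

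Markers of other cell types were therefore set beside the members. The 9 miRNAs of stroma and vessels (miR-143, miR-145, miR-199, miR-214, miR-126, miR-10b, miR-125b, miR-99a and miR-218) summed to 54772 to 252721 CPM in DLBCL and 84813 to 146895 CPM in healthy nodes. Of the 9, 7 had a negative log2 fold change, with a median of -0.30, and none was a DEM. miR-199 had 239 CPM in DLBCL3, 2677 in DLBCL2 and 3027 in DLBCL6, against 2081 to 4053 CPM in healthy nodes, and miR-214 was likewise lowest in DLBCL3 and highest in DLBCL2 and DLBCL6. miR-125b (log2 fold change -1.42), miR-126 (-1.08), miR-145 (-0.30) and miR-218 (0.14) were also lowest in DLBCL3 among the DLBCL nodes. There miR-125b had 41.4 CPM and miR-126 had 8.85 CPM. The 3 most abundant of the list had other highest nodes: miR-143 and miR-99a were highest in DLBCL5, at 69210 and 162739 CPM, and miR-10b was highest in DLBCL3, at 60141 CPM. Of these, miR-99a was lowest in DLBCL3, at 4856 CPM, and miR-143 was lowest in DLBCL4, at 15648 CPM. The 7 neural miRNAs summed to 33.5 to 1858 CPM in DLBCL and 64.3 to 128 CPM in healthy nodes, with miR-137 at 0 in every healthy node. The high sums were mostly miR-9 alone, with 1854 CPM in DLBCL3, 782 in DLBCL6 and 488 in DLBCL1, but 13.0 in DLBCL2. Of the 4 tested, 3 had a positive and 1 (miR-138a) a negative log2 fold change, and none was a DEM. The 7 muscle miRNAs summed to 678 to 3238 CPM and 609 to 771 CPM, with 0 DEMs among the 4 tested, and the 7 epithelial miRNAs to 18.5 to 130 CPM and 21.4 to 32.4 CPM, with 0 DEMs among the 3 tested. In every library miR-499 was the most abundant of the muscle miRNAs, at 468 to 3172 CPM in DLBCL and 591 to 744 CPM in healthy nodes. The red blood cell miRNAs miR-451, miR-144 and miR-486 summed to 5171 to 35566 CPM in DLBCL and 808 to 1070 CPM in healthy nodes, and miR-451 and miR-486 were DEMs, higher in DLBCL. The part of any of these cells in the members' levels was not tested.

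The libraries also differed in base quality, as the study's quality tables show: DLBCL1, DLBCL2, DLBCL3 and DLBCL5 had higher base quality than DLBCL4, DLBCL6 and the 4 healthy nodes. With DLBCL4 and DLBCL6 as the only DLBCL nodes, 23 of 26 tested members were negative, where 52.1% of all were, with a median log2 fold change of -0.97. None was a DEM in that comparison, where 17.8% of 259 miRNAs were, and 3 were lower at an unadjusted p under 0.05, where 12.0% were. Within DLBCL, 18 of 24 tested members were lower in the higher base quality nodes, with a median log2 difference of -0.55 against -0.11 for all miRNAs tested, of which 53.3% were lower. None of the 24 was a DEM and none had an unadjusted p under 0.05 by edgeR, where 0 of all 255 miRNAs were DEMs and 12.5% had such a p.

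The count at an unadjusted p under 0.05 changed as single nodes were left out. It was 3 members with all libraries, 8 without DLBCL2, 7 without DLBCL6, 1 without DLBCL4 and 0 without Healthy2. Over all miRNAs tested the DEMs moved too: 14 of 247 with all libraries, 17 of 243 without DLBCL2 and 15 of 242 without DLBCL6. They were 23 of 244 without DLBCL4 and 2 of 248 without Healthy2. DEMs were counted at an adjusted p and in either direction, so they are no background for the members' counts. No share of all miRNAs at the unadjusted threshold was counted with nodes left out. Without Healthy2, the healthy node with the highest member levels after TMM scaling, 18 of 21 tested members were negative. Their median log2 fold change was -1.01, against 0.12 for all miRNAs tested. Without DLBCL2 all 21 tested members were negative with a median of -1.93, against 0.17 for all.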

How the data were processed

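Small RNA libraries of 6 DLBCL and 4 healthy canine lymph nodes were analysed, 1 per dog. The authors trimmed the reads, mapped them to CanFam3.1 with Bowtie 0.12.9, counted mature miRNAs of miRBase with a modified miRDeep2, and deposited read counts per miRNA with no normalization. The deposited TPM values are those counts scaled to the library's total of miRNA reads. Reads were not mapped again here, and most names give no arm.

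The counts were tested in R 4.3.3 with edgeR 4.0.16 (TMM, the default filter by group, quasi-likelihood test, Benjamini-Hochberg over 247 miRNAs). The biological coefficient of variation was 0.731. CPM used TMM-adjusted library sizes, and log2 CPM a prior count of 2. Alternatives used DESeq2 1.42.0, limma 3.58.1 with voom or on log2(TPM + 1), other scalings and filters, base quality, and each library left out in turn.

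The members and lists were chosen with earlier results of these data known, in that the locus was taken up with them in view, while the rule that finds its members uses names alone. Members were given in every library when they were among the 6 most abundant, the 4 lowest or the 4 highest log2 fold changes, were called by edgeR or DESeq2, or were on the study's RT-qPCR panel, as miR-379 was. Libraries of a group differed by far more than sampling noise (chi-square per degree of freedom of at least 2115). No columns of comparisons were used. No miRNA sequences were used here, and the annotation, of another assembly than the files, served only for gene names and order.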

Additional observations from a re-analysis of the deposited data

Results flagged for a closer look

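Each group's lowest and highest library was compared with the rest of its group by Dixon's ratio on log2 CPM, for the named members, their sum and the 5 most similar miRNAs, in 36 groups. By chance about 1 in 20 groups would be marked, and 2 were. miR-370 in DLBCL2 was 19.8 CPM, where the next DLBCL node had 4.78 CPM and the lowest 2.36 CPM (ratio 0.672). miR-95, which is no member, was 23.0 CPM in Healthy2, where the other healthy nodes had 10.9 to 11.6 CPM (ratio 0.918).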

How the results depend on the processing

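Over 12 named members, 247 of 262 values under alternatives kept the direction of the log2 fold change. The other 15 belonged to the 4 members nearest 0. With scaling to total miRNA reads the values were 0.82 for miR-370, 0.70 for miR-1185, 0.77 for miR-134 and 0.80 for miR-543, and with limma on log2(TPM + 1) they were 0.28, 0.10, 0.15 and 0.31. miR-1185 and miR-134 gave 0.47 and 0.22 both with base quality as a covariate and with the lower base quality libraries only. With each library left out, miR-370 ran from -1.14 (without DLBCL2) to 0.53 (without Healthy2) and miR-543 from -0.76 to 0.71 (without the same libraries).

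The number of members called was 0 except for 1 by DESeq2, with or without its Cook's distance filter, 2 by limma-voom with weighted libraries and 0 to 1 with each library left out. The number lower at an unadjusted p under 0.05, 3 in all, was 5 without a filter, 9 by DESeq2 with either setting, 6 by limma-voom, 0 with scaling to total reads, 0 with limma on log2(TPM + 1) and 0 with base quality as a covariate, and 0 to 8 with each library left out. At that threshold 9.31% of all miRNAs tested were lower in the main fit. The share was 11.1% by DESeq2 with its Cook's distance filter, 15.0% by limma-voom and 1.62% with scaling to total reads. No such share was counted for the rest of these settings. DEMs over all miRNAs were counted at an adjusted p and in either direction. They were 14 of 247 in all, 17 of 320 without a filter, 45 of 306 by DESeq2 and 46 of 247 by limma-voom. They were 23 of 247 with scaling to total reads, 21 of 247 with limma on log2(TPM + 1) and 7 of 247 with base quality as a covariate. The median log2 fold change, -1.44 in all, was -0.33 with scaling to total reads and -1.30 with miR-148a left out of that total. It was -0.48 with limma on log2(TPM + 1), -2.43 with the replicate block and -1.93 to -1.01 with each library left out. Depth limits the rare members: 10 had at most 28 reads in any library and did not pass the filter.

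With the replicate number as a block, 11 members were lower at an unadjusted p under 0.05, a threshold at which no share of all miRNAs was counted for this setting. In that fit 0 members were called, 1 of 247 miRNAs was called in all, and miR-543 gave 0.24. The deviations of same-numbered nodes correlated at 0.26, -0.01, -0.30 and -0.33 for numbers 2 to 5, and they come from different dogs, so the numbers do not pair them. The comparison by base quality within DLBCL called 0 members under every alternative run, which were chosen after seeing the data. The causes of these shifts were not tested.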
